A study of Mus musculus with 16 samples.

Results

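The proteasome is the protease that degrades ubiquitin-tagged proteins. Its core particle, called 20S, is a barrel of alpha rings outside and beta rings inside, and the proteolytic sites lie on the beta subunits Psmb5, Psmb6 and Psmb7. A regulatory particle, called 19S, with a ring of ATPases (Psmc genes) and non-ATPase subunits (Psmd genes), binds ubiquitin chains and unfolds the substrate. In cells of the immune system, and in other cells exposed to interferon gamma, the inducible subunits Psmb8, Psmb9 and Psmb10 take the places of Psmb5, Psmb6 and Psmb7 to form the immunoproteasome, which shapes the peptides presented by MHC class I, and Psme1 and Psme2 form the PA28 activator that caps it.

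All genes whose symbol begins with Psma, Psmb, Psmc, Psmd, Psme or Psmf followed by a digit were taken, which gave 43 genes with 65 of the 25697 probes on the array. Above background on enough arrays were 57 of these probes, from 41 of the 43 genes. The only probes of the alpha subunits Psma1 and Psma6 were not above background on any array, so these genes have no value. The symbol rule also took in Psmc3ip, a cofactor of meiotic recombination, and Psme3ip1, a protein that binds the activator Psme3, neither of which is a subunit. Psmd5, Psmd9 and Psmd10 are named like subunits but are chaperones of 19S assembly. RNA was measured, not protein, and assembled immunoproteasome was not measured.

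Lung RNA came from 16 female C57BL/6N mice aged 17 weeks, 4 in each of the groups challenged mutant, untreated mutant, challenged wild type and untreated wild type, and each array on the Illumina mouse BeadChip held the RNA of 1 mouse. The mutant line lacks Cox4-2, the gene listed as Cox4i2 on the array, an isoform of a subunit of cytochrome c oxidase. Challenged mice were sensitised by injection of ovalbumin (OVA) in alum and later inhaled an OVA aerosol on repeated occasions, a model of allergic airway inflammation. Untreated mice have no treatment entered, and since the sensitisation protocol is attached to every sample, the labels do not settle whether they were sensitised. The labels do not say how the mutant allele was made. Values are the authors' background-subtracted, normalised intensities, and tests were made with limma on log2 values after a background model with an offset of 16, over 11955 genes and unnamed probes, so fold changes of dim probes are understated. A gene was called changed at a Benjamini-Hochberg adjusted p under 0.05 over all 11955.

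On 3 challenged arrays, wild type 1 and 3 and mutant 2, the mean log2 value of skeletal muscle genes, with untreated wild type set to 0, was 3.25 to 4.72. It was -0.21 to 0.41 on the remaining challenged arrays and -0.27 to 0.16 in untreated lungs. The same 3 arrays were the highest challenged ones in squamous epithelial genes, at 3.83, 3.79 and 3.24 in that order. In fat genes they were also the highest, at 1.98, 1.99 and 1.52. They are called arrays with muscle RNA below, and leaving them out does not separate muscle from squamous or fat genes. Calls of proteasome genes that are gained or lost without these arrays are given both ways. Cox4i2 averaged 144 ± 66.6 in challenged mutants against 248 ± 55.6 in challenged wild type, and 137 ± 55.9 in untreated mutants against 283 ± 59.8 in untreated wild type (intensity, SD, n = 4 each). Neither genotype difference was called (limma adjusted p = 0.265 in challenged and 0.19 in untreated lungs). The position of its probe relative to the mutation is not stated. Lung epithelial marker genes had summed intensities of 86622 to 105078 over all 16 arrays, and none of the 7 measured was below background in any group.

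Of the inducible catalytic subunits, Psmb9 and Psmb10 rose with challenge in mutants and in wild type, and Psmb8 rose in wild type and was not called in mutants. The PA28 activator genes were not called in either genotype. The start regions of these 3 genes and of Psme1, the activator gene, are shown because they differ in the interferon-related motifs they hold. They are RefSeq sequences of build GRCm38.p6, from 250 bases before to 50 after the annotated start, written 5′ to 3′ on the gene's own strand, with capitals marking motif matches. Psmb8 lies at chr17:34197945-34198244 on the plus strand, Psmb9 at chr17:34187281-34187580 on the minus strand, Psmb10 at chr8:105938343-105938642 on the minus strand and Psme1 at chr14:55578244-55578543 on the plus strand.
Psmb8: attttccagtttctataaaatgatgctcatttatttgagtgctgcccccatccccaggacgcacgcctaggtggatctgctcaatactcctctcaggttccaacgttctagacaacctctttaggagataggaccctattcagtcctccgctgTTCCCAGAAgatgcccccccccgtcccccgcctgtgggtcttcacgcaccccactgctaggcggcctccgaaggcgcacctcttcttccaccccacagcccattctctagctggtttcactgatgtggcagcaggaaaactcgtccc
Psmb9: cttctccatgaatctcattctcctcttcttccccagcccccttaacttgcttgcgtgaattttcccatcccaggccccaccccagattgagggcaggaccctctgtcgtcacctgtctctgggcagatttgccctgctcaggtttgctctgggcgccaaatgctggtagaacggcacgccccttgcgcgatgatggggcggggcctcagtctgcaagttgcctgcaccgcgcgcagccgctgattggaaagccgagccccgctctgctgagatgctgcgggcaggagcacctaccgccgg
Psmb10: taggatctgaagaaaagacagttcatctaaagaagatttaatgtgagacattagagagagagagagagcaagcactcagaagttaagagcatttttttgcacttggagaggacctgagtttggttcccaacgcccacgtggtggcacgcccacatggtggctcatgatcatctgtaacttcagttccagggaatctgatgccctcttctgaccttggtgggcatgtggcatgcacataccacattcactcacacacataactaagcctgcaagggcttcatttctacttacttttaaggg
Psme1: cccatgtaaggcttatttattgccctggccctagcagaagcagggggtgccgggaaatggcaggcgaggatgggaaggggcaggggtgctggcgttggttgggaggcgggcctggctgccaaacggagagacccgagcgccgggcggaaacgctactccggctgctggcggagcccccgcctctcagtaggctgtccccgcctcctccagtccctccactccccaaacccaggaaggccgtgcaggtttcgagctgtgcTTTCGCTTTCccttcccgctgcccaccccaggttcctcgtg

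Psmb8 held 1 match to the gamma-activated site TTCNNNGAA, a motif of interferon gamma target genes, at bases -97 to -89 from its start. Psme1 held 1 match, on the opposite strand, to the core of the interferon-stimulated response element, bound by interferon regulatory factors, at bases 10 to 19. Psmb9, Psmb10 and both annotated starts of Psme2 held neither motif in this window. Both strands were searched, and 36 of the 41 tested genes had a start region in the table. The response element core (GAAA, any 2 bases, GAAA) was found in 4 of these 36 (Psmb3, Psmd4, Psmd9 and Psme1), against 3.44% of all 32851 start regions of this length. The gamma-activated site was found in 2 of 36 (Psmb8 and Psmd2), against 8.3% of all. The proteasome counts are by gene, with a match in any of its start regions, whereas the shares of all are per start region. A gene with several starts has more chances of a match, so counts and shares are unlike measures. A match is a description of these letters only. On chromosome 17 of the same build the genes follow each other in the order Psmb9, Tap1, Psmb8, Tap2, where Tap1 and Tap2 encode the transporter that carries peptides to MHC class I. Psme1 and Psme2 lie on chromosome 14 with 1 gene, Emc9, between them.

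Psmb10, the inducible trypsin-like subunit, had intensities of 1994, 1996, 1688 and 1994 in challenged mutants, against 1474, 1102, 1208 and 1089 in untreated mutants. In wild type it had 2286, 2061, 1849 and 2588 in challenged lungs, against 1424, 1347, 1472 and 1090 in untreated lungs. In neither genotype did a challenged array overlap an untreated one. The log2 change was 0.64 (SE 0.12, limma adjusted p = 0.0022) in mutants and 0.70 (SE 0.12, adjusted p = 0.00158) in wild type, about 1.56-fold and 1.63-fold. A second, dimmer Psmb10 probe moved less, by 0.31 (adjusted p = 0.108 when every probe was tested singly) in mutants and 0.42 (adjusted p = 0.0452) in wild type.

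Psmb9, which takes the place of Psmb6, had intensities of 2021, 1839, 1325 and 2117 in challenged mutants, against 1413, 999, 1100 and 776 in untreated mutants. In wild type, intensities were 2000, 1833, 1854 and 2257 in challenged lungs, against 1038, 1300, 1421 and 962 in untreated lungs. The groups were apart in wild type, and in mutants challenged array 3 lay below untreated array 1. The log2 change was 0.75 (SE 0.17, adjusted p = 0.00599) in mutants and 0.74 (SE 0.17, adjusted p = 0.00811) in wild type, or 1.69-fold and 1.67-fold.

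Psmb8, which takes the place of Psmb5, was the dimmest of the 3 probes, at 159, 136, 118 and 151 in challenged mutants, against 160, 59.5, 86.6 and 87.0 in untreated mutants. Among wild-type mice it had 203, 141, 163 and 187 in challenged lungs, against 97.7, 98.1, 124 and 114 in untreated lungs. All challenged wild-type arrays lay above all untreated ones, whereas untreated mutant array 1 was as high as the highest challenged mutant. The log2 change was 0.52 (SE 0.16, adjusted p = 0.0355) in wild type and 0.43 (SE 0.16, adjusted p = 0.0619) in mutants. Without untreated mutant array 1 the mutant change was 0.62 and passed (adjusted p = 0.00465). The wild-type call was lost without any 1 of untreated wild type 1, 2 or 4 or of challenged wild type 1 or 4, at log2 changes of 0.45 to 0.54 and adjusted p of 0.0623 to 0.0955, and without the 3 arrays with muscle RNA it was 0.45 (adjusted p = 0.142).

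The activator subunit Psme1 averaged 2635 ± 172 in challenged mutants against 2871 ± 175 in untreated mutants, and 2934 ± 192 in challenged wild type against 2890 ± 114 in untreated wild type (intensity, SD, n = 4 each). Its log2 change was -0.12 (95% interval -0.29 to 0.05) in mutants and 0.02 (-0.15 to 0.19) in wild type, so a rise as large as that of Psmb9 or Psmb10 lay outside both intervals. Psme2 had 258, 221, 264 and 263 in challenged mutants, against 397, 283, 312 and 266 in untreated mutants. Challenged wild type had 277, 277, 301 and 379, against 275, 278, 304 and 243 in untreated wild type. All 4 challenged mutant arrays were below all 4 untreated ones, but the change of -0.27 was not called (SE 0.12, adjusted p = 0.105), nor was that of 0.14 in wild type (adjusted p = 0.444).

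**Figure D1:**
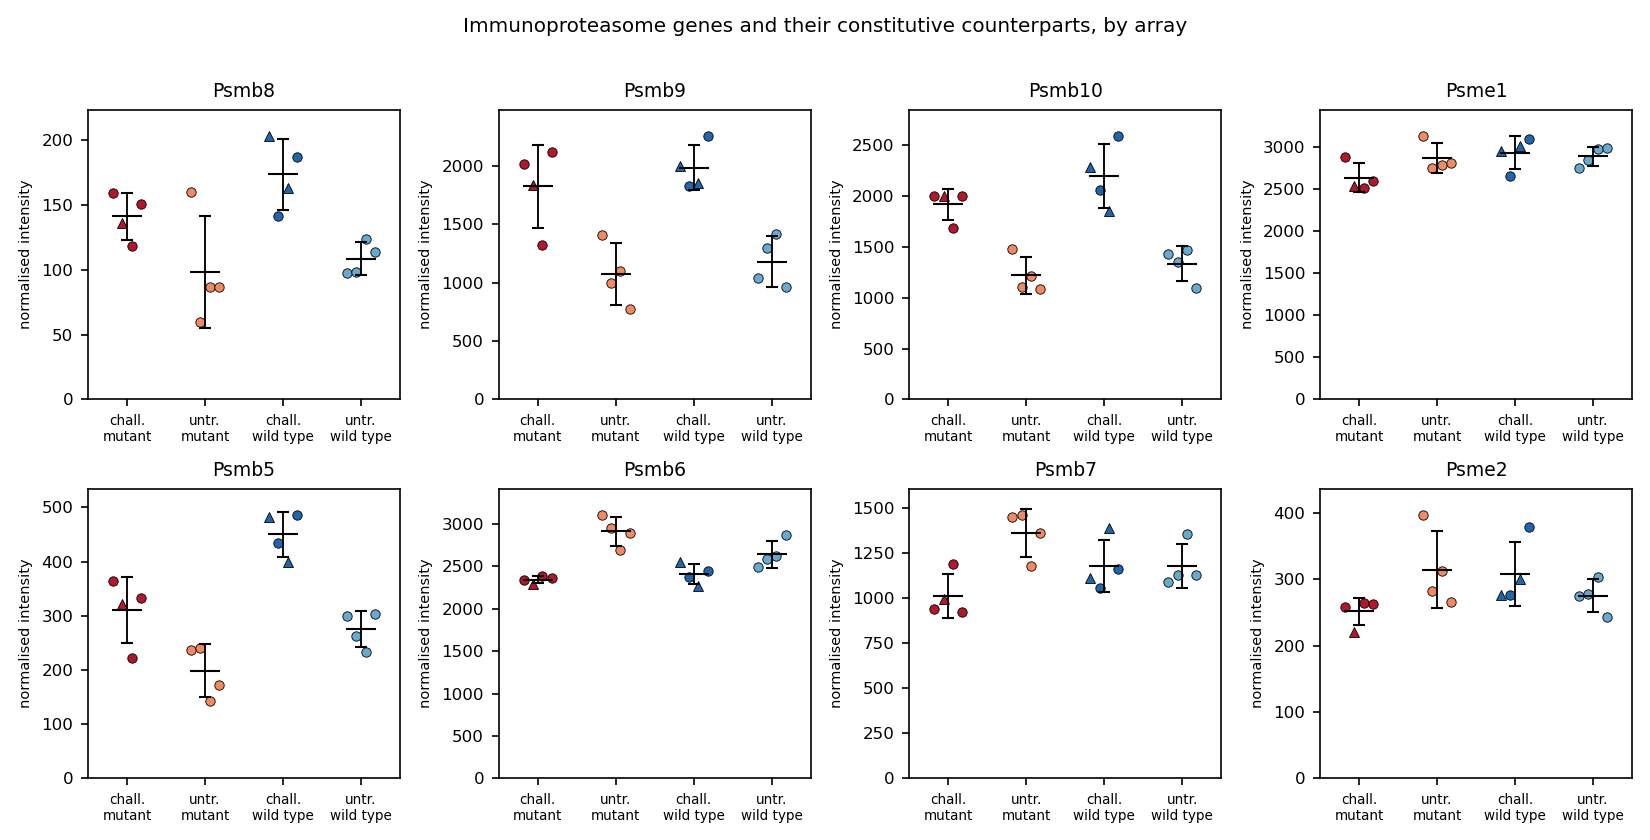
Normalised intensity (linear, from 0) of the 5 immunoproteasome genes and of the constitutive catalytic subunits Psmb5, Psmb6 and Psmb7, by group. Each point is 1 array, bars are mean ± SD (n = 4), and triangles mark the 3 arrays with skeletal muscle RNA. Psmb9 and Psmb10 are higher in challenged lungs of both genotypes, Psme1 lies between 2515 and 3131 everywhere, and Psmb6 is lower in challenged than in untreated mutants.

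Arrays high in one immunoproteasome gene were often high in the others of the group, with exceptions. Untreated mutant array 1 was the highest of its group in all 5, and challenged mutant array 3 was the lowest of its group in Psmb8, Psmb9, Psmb10 and Psme1 and the highest in Psme2. With group means removed, the Pearson correlation over 16 arrays had a median of 0.62 over their 10 pairs (0.38 to 0.80), against a median of 0.08 over all 820 pairs of tested proteasome genes (-0.74 to 0.93). The most alike pairs with an immunoproteasome gene were Psmb10 with Psmd8 (r = 0.82), Psmb10 with Psmb9 (0.80) and Psmb8 with Psme1 (0.77). These are descriptions of arrays that share their RNA across genes, and carry no test.

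Leukocyte genes were higher in the same comparisons as the inducible subunits. Of 15 leukocyte genes measured, 9 rose in challenged mutants, and 8 rose and 1 fell in challenged wild type, where 12.1% of all features rose in mutants and 8.19% rose and 9.42% fell in wild type. Among those that rose was Ptprc, the pan-leukocyte marker CD45, by 0.88 in mutants (adjusted p = 0.00113) and 0.64 in wild type (adjusted p = 0.00916). The mean log2 value of these genes, relative to untreated wild type, ranged from 0.20 to 0.60 in challenged mutants against -0.33 to 0.10 in untreated mutants, and from 0.27 to 0.50 in challenged wild type against -0.19 to 0.26 in untreated wild type. Their summed intensity ranged from 26226 to 32899 in challenged mutants against 17886 to 25958 in untreated mutants, and from 28213 to 32707 against 21200 to 30581 in wild type, challenged before untreated. None of the 15 was below background in a whole group. In whole lung, more cells of a type and more RNA per cell cannot be told apart.

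The array that was lowest in the inducible subunits among challenged mutants, array 3, also had the lowest leukocyte value there, 0.20, and untreated mutant array 1 had the highest of its group, 0.10. Other arrays did not keep this order. Challenged mutant array 2 had the highest leukocyte value of its group, 0.60, but a mean of Psmb8, Psmb9 and Psmb10 of 0.49, below arrays 1 and 4 at 0.59. Untreated wild type array 2 had the lowest leukocyte value of its group, -0.19, but the second highest mean of these subunits, 0.03. With the leukocyte value as a covariate, the challenge change of Psmb8 was 0.00 in mutants and 0.14 in wild type, that of Psmb9 0.36 and 0.40, and that of Psmb10 0.33 and 0.43, mutant before wild type. None of these then passed (limma adjusted p of 0.144 to 0.997). The same covariate kept the change of the constitutive subunit Psmb5 at 0.57 in mutants and 0.65 in wild type, with adjusted p of 0.144 and 0.129. It left 734 genes called in mutants and 241 in wild type, against 2843 and 2105 without it. The leukocyte value itself differs between challenged and untreated lungs, so the covariate and the challenge overlap. Without the covariate, 12.1% of all features rose with challenge in mutants and 8.19% in wild type. Of 9 T cell genes, 5 rose in mutants and 4 in wild type, and of 7 B cell genes 4 rose in each. Their part in the change of the inducible subunits was not tested.

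**Figure D2:**
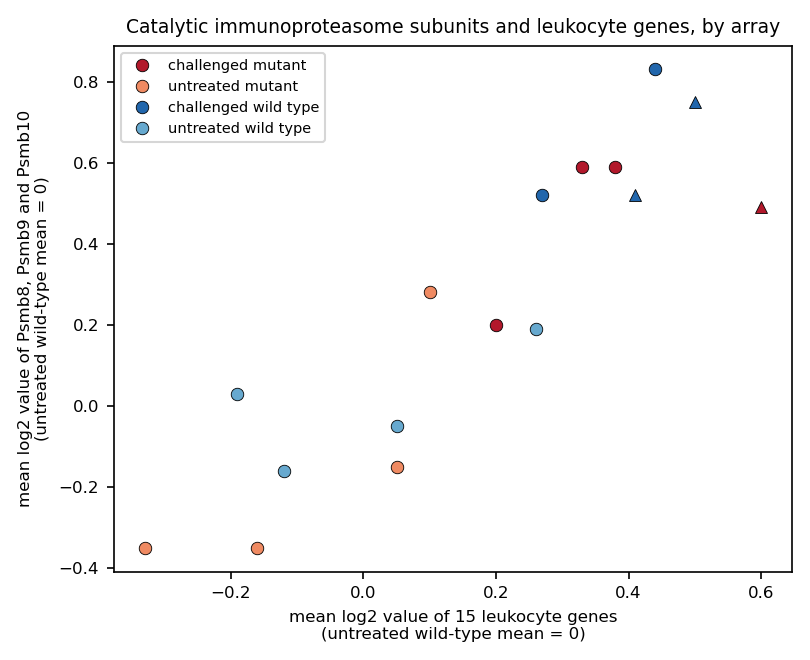
Mean log2 value of Psmb8, Psmb9 and Psmb10 against the mean log2 value of 15 leukocyte genes, both relative to the untreated wild-type mean, 1 point per array, with triangles for the 3 arrays with skeletal muscle RNA. Challenged arrays lie at 0.20 to 0.83 and untreated ones at -0.35 to 0.28 on the vertical axis, and arrays high on one axis tend to be high on the other.

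The constitutive catalytic subunits did not move as a unit. Psmb5, the chymotrypsin-like subunit, rose with challenge in both genotypes, and Psmb6 and Psmb7, the caspase-like and trypsin-like subunits, fell in mutants. Psmb5 had 364, 322, 222 and 333 in challenged mutants, against 237, 241, 142 and 173 in untreated mutants. In wild type it had 483, 434, 399 and 486 in challenged lungs, against 300, 262, 234 and 304 in untreated lungs. The wild-type groups were apart, and challenged mutant array 3 lay within the untreated mutant range. The log2 change was 0.56 (SE 0.15, adjusted p = 0.0142) in mutants and 0.64 (SE 0.15, adjusted p = 0.00843) in wild type.

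Psmb6 had 2338, 2286, 2387 and 2367 in challenged mutants, against 3106, 2952, 2697 and 2892 in untreated mutants, with no overlap. In wild type it averaged 2410 ± 118 in challenged and 2641 ± 162 in untreated lungs (SD, n = 4 each). Its log2 change was -0.31 (SE 0.08, adjusted p = 0.00922) in mutants and -0.13 (SE 0.08, adjusted p = 0.256) in wild type. Psmb7 had 938, 996, 1191 and 922 in challenged mutants, against 1449, 1461, 1175 and 1359 in untreated mutants, and challenged array 3 lay just above untreated array 3. It fell by 0.42 on the log2 scale in mutants (SE 0.11, adjusted p = 0.0136) and stood at 0.00 in wild type (SE 0.11, adjusted p = 0.997). The Psmb7 probes disagreed in mutants, with -0.49 for the second (adjusted p = 0.00867, every probe tested singly) and 0.11 for the third and dimmest (adjusted p = 0.439). RefSeq lists 6 pseudogene copies of member genes, of Psma5, Psmb5, Psmb6 and Psmb7, and hybridisation of these probes to copies was not tested.

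Set against their constitutive counterparts on the same array, Psmb9 and Psmb10 were higher in challenged lungs and Psmb8 was not. The log2 difference Psmb9 minus Psmb6, with the untreated wild-type mean set to 0, was 0.94, 0.84, 0.32 and 0.99 in challenged mutants against 0.04, -0.37, -0.11 and -0.69 in untreated mutants. In wild type it was 0.81, 0.78, 0.87 and 1.03 in challenged lungs against -0.08, 0.18, 0.29 and -0.39 in untreated lungs. No challenged array overlapped an untreated one in either genotype. Psmb10 minus Psmb7 averaged 0.73 ± 0.28 in challenged mutants against -0.33 ± 0.22 in untreated mutants, and 0.70 ± 0.32 in challenged wild type against 0.00 ± 0.18 in untreated wild type (SD, n = 4 each), again without overlap. In wild type the gap was narrow, with the lowest challenged array at 0.23 and the highest untreated one at 0.20. Each gene's brightest probe was used, and the dimmer Psmb10 probe and the dimmest Psmb7 probe moved differently, as given above. Psmb8 minus Psmb5 averaged 0.14 ± 0.15 against 0.27 ± 0.47 in mutants and -0.12 ± 0.13 against 0.00 ± 0.24 in wild type, challenged before untreated, and these groups overlapped. These differences were given no test.

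**Figure D3:**
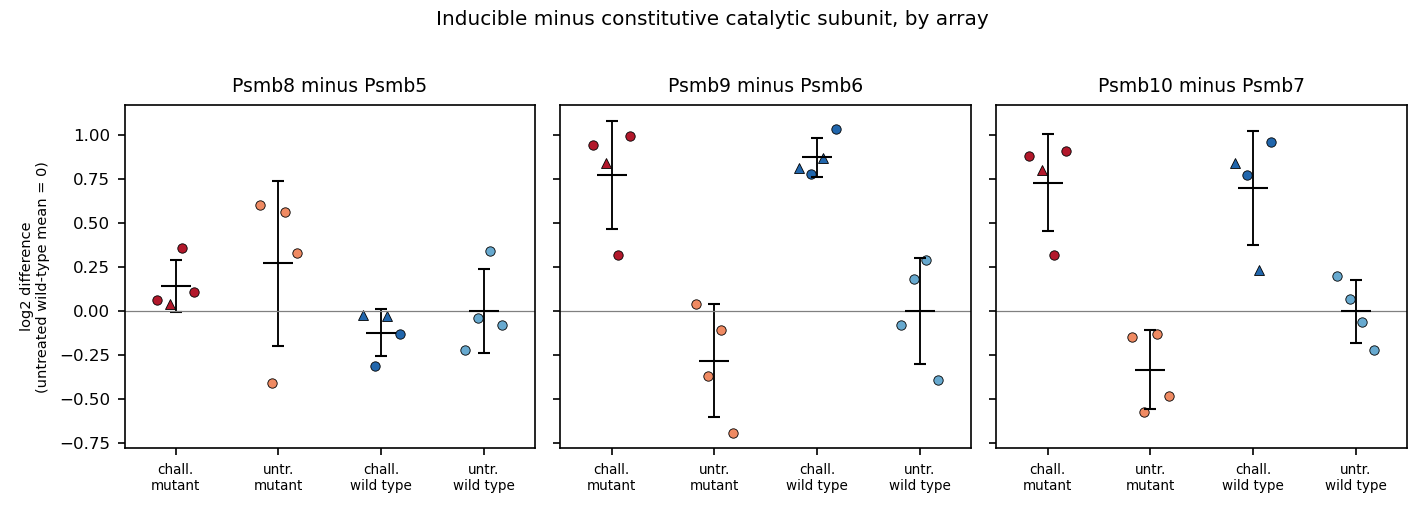
Log2 value of each inducible catalytic subunit minus that of its constitutive counterpart on the same array, with the untreated wild-type mean set to 0, by group. Points are arrays, bars mean ± SD (n = 4), and triangles the 3 arrays with skeletal muscle RNA. Challenged arrays lie above untreated ones for Psmb9 minus Psmb6 and Psmb10 minus Psmb7 in both genotypes, and overlap them for Psmb8 minus Psmb5.

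Over all tested proteasome genes, 13 of 41 were called with challenge in mutants (31.7%), against 23.8% of all 11955 features. Of these 8 were higher, where 12.1% of all features were called higher, and 5 lower, where 11.7% were. In wild type 7 of 41 were called (17.1%), close to the 17.6% of all features, 6 of them higher (8.19% of all features) and 1 lower (9.42%). The median log2 change of the 41 was 0.01 in mutants and 0.02 in wild type, where the medians of all features were 0.01 and -0.01. Challenged and untreated arrays did not overlap in 13 of the 41 in mutants (29.6% of all features) and in 6 in wild type (17.9%). At an unadjusted p under 0.05 there were 20 of 41 in mutants (37.6% of all features) and 12 in wild type (32.4%). Called in both genotypes, each time as higher, were 4 genes, Psmb9, Psmb10, Psmb5 and the lid subunit Psmd8.

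**Figure D4:**
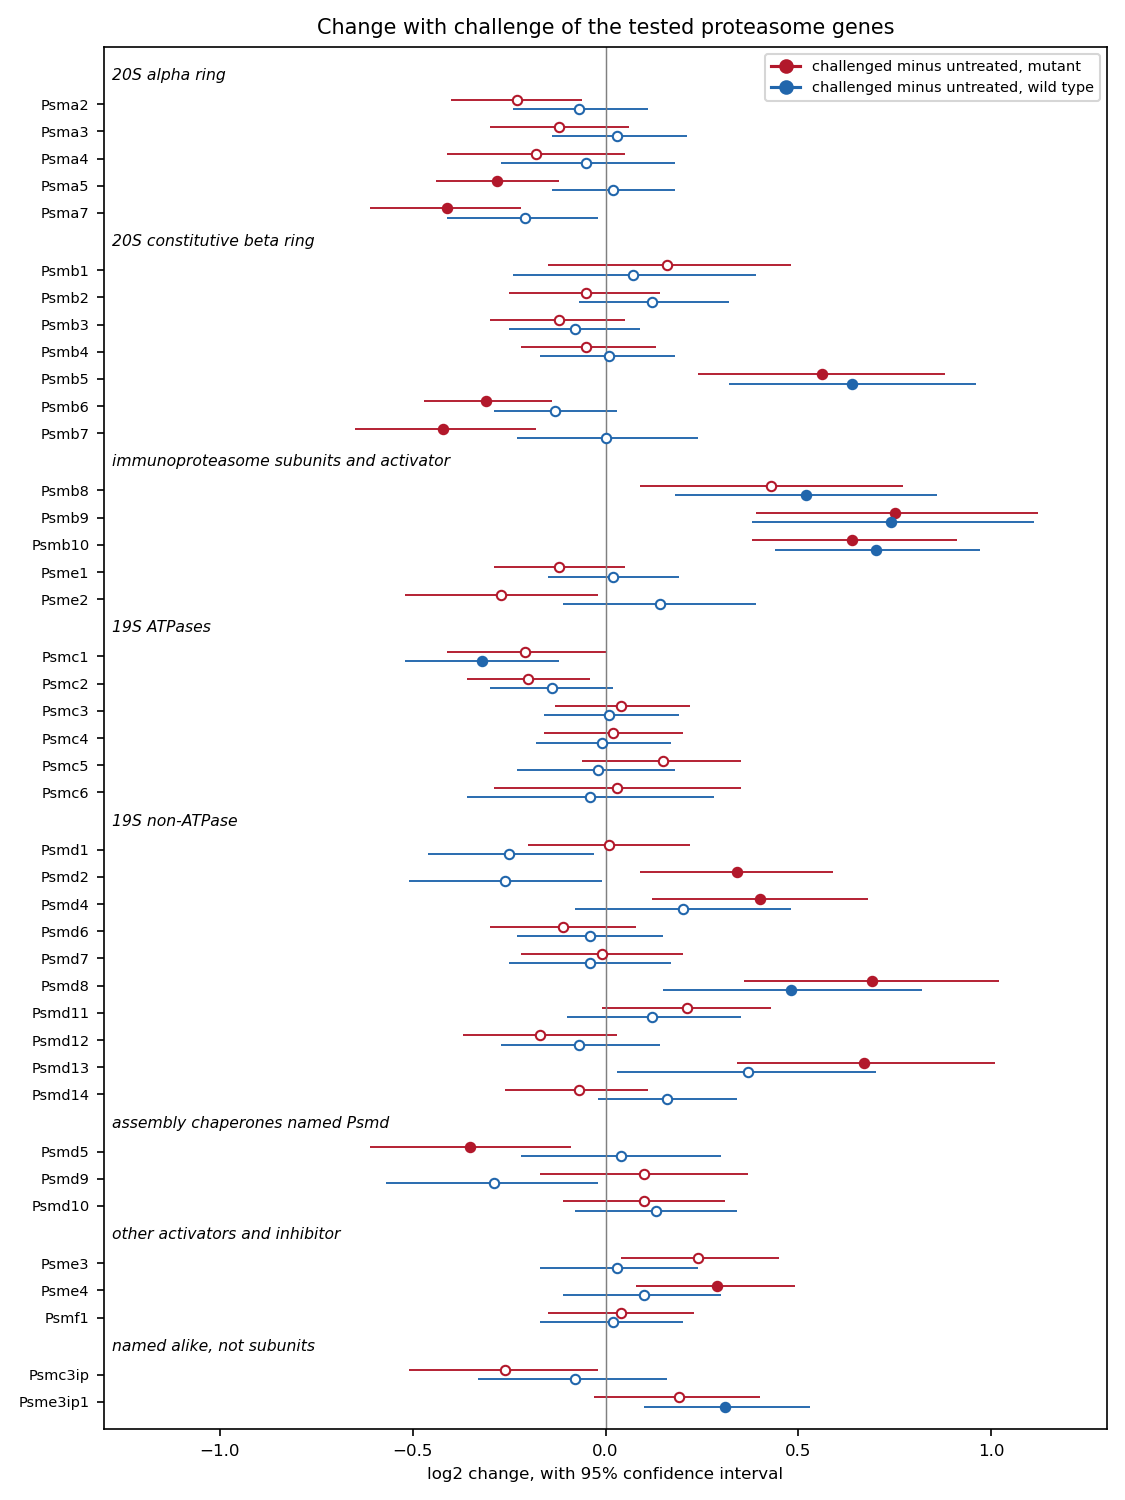
Log2 change with challenge (challenged minus untreated) of the 41 tested proteasome genes in mutants (red) and wild type (blue), grouped by role, with 95% confidence intervals. Filled circles are past limma's adjusted p of 0.05 over all 11955 features, 13 in mutants and 7 in wild type. The inducible catalytic subunits and Psmb5, Psmd8 and Psmd13 lie farthest to the right, and the alpha ring genes lie at or below 0.03.

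Genes of the alpha ring, which forms the gate of the core particle, were lower or near 0 in challenged lungs. In mutants 2 of the 5 tested fell, where 11.7% of all features fell, and all 5 estimates were below 0 (median -0.23). In wild type none of the 5 was called, where 9.42% of all features fell (median -0.05). Psma7 had 985, 1066, 1276 and 1224 in challenged mutants, against 1492, 1542, 1460 and 1595 in untreated mutants, with no overlap. It fell by 0.41 on the log2 scale (SE 0.09, adjusted p = 0.00512), and in wild type its challenged arrays, at 1128 to 1276, also lay below the untreated ones, at 1314 to 1590, with a change of -0.21 that was not called (adjusted p = 0.126). A second Psma7 probe gave -0.48 in mutants and -0.16 in wild type. Psma5 had 3542, 3553, 3325 and 3527 in challenged mutants, against 4446, 4176, 4168 and 4153 in untreated mutants. These values were tight and apart, at a change of -0.28 (SE 0.07, adjusted p = 0.0139), while in wild type Psma5 averaged 3839 ± 261 in challenged and 3778 ± 141 in untreated lungs (SD, n = 4 each). With the leukocyte value as a covariate Psma5, at -0.40 (adjusted p = 0.0422), was the 1 proteasome gene still called in mutants. Several changes that were no longer called kept about their size, with Psmb6 at -0.28, Psmb7 at -0.42, Psmd13 at 0.66, Psmd4 at 0.38 and Psmd2 at 0.41 in mutants (adjusted p of 0.112 to 0.256), while Psmd8 was at 0.39 (adjusted p = 0.288) and Psmd5 at -0.04 (adjusted p = 0.898).

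Of the other constitutive beta subunits, Psmb1, Psmb2, Psmb3 and Psmb4, none was called, with changes of -0.12 to 0.16 in mutants and -0.08 to 0.12 in wild type. For Psmb2, a beta subunit without a proteolytic site, a dimmer second probe gave -0.43 in mutants (adjusted p = 0.00733, every probe tested singly) where the brighter one gave -0.05.

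Among the non-ATPase subunits of the 19S particle, which hold the ubiquitin receptors and the deubiquitinase, 4 of 10 tested rose in mutants, where 12.1% of all features rose, and 1 of 10 in wild type, where 8.19% did. The medians were 0.11 and 0.04. Psmd8, a lid subunit, had 1129, 1445, 1091 and 1325 in challenged mutants, against 991, 686, 743 and 632 in untreated mutants. In wild type, intensities were 1532, 1319, 1125 and 2018 in challenged lungs, against 1047, 1070, 1029 and 996 in untreated lungs. No arrays overlapped in either genotype, and the change was 0.69 (SE 0.16, adjusted p = 0.00565) in mutants and 0.48 (SE 0.16, adjusted p = 0.0426) in wild type. The wild-type call was lost without any array of either group other than challenged array 3, at 0.33 to 0.53 (adjusted p of 0.0504 to 0.14).

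Psmd13, another lid subunit, had 4540, 4580, 3611 and 4517 in challenged mutants, against 2786, 2590, 2819 and 2513 in untreated mutants. Among wild-type mice it had 3690, 4816, 2697 and 4974 in challenged lungs, against 3470, 2866, 2584 and 3311 in untreated lungs. The mutant groups were apart, and in wild type the 2 arrays with muscle RNA, 1 and 3, were the low ones. In mutants the array with muscle RNA, challenged array 2, was the highest of its group, at 4580. The change was 0.67 (SE 0.16, adjusted p = 0.00672) in mutants and 0.37 (SE 0.16, adjusted p = 0.119) in wild type, and 0.68 (adjusted p = 0.00355) in wild type without the 3 arrays with muscle RNA. Psmd4, a ubiquitin receptor, moved in the same way and was the gene most alike to Psmd13 (r = 0.93 over 16 arrays with group means removed). It averaged 5668 ± 486 in challenged mutants against 4280 ± 306 in untreated mutants (SD, n = 4 each), a change of 0.40 (SE 0.13, adjusted p = 0.0355). Challenged wild type had 5039, 6001, 3783 and 6426, against 4873, 4486, 4228 and 4565 in untreated wild type, a change of 0.20 that was not called (adjusted p = 0.311). Without the muscle arrays the wild-type change was 0.45 (adjusted p = 0.013).

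Psmd2, the large base subunit that docks ubiquitin shuttle proteins, was measured by a dim probe near the background limit of 16.8. It had 38.6, 29.6, 35.5 and 41.2 in challenged mutants, against 24.6, 17.2, 21.6 and 17.0 in untreated mutants. In wild type it had 22.5, 27.4, 46.3 and 13.6 in challenged lungs, against 43.2, 45.4, 32.4 and 38.8 in untreated lungs. Mutant groups were apart, with higher values after challenge, and in wild type 3 of 4 challenged arrays lay below all untreated ones. The changes were 0.34 in mutants (SE 0.12, adjusted p = 0.0446) and -0.26 in wild type (SE 0.12, adjusted p = 0.132), and the wild-type change was -0.40 (adjusted p = 0.0242) without the arrays with muscle RNA. The other non-ATPase genes, Psmd1, Psmd6, Psmd7, Psmd11, Psmd12 and Psmd14, were not called in either genotype, with changes of -0.17 to 0.21 in mutants and -0.25 to 0.16 in wild type. A dimmer Psmd7 probe gave -0.68 in mutants (adjusted p = 0.00222) and -0.45 in wild type (adjusted p = 0.0294), against -0.01 and -0.04 for the brighter one.

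**Figure D5:**
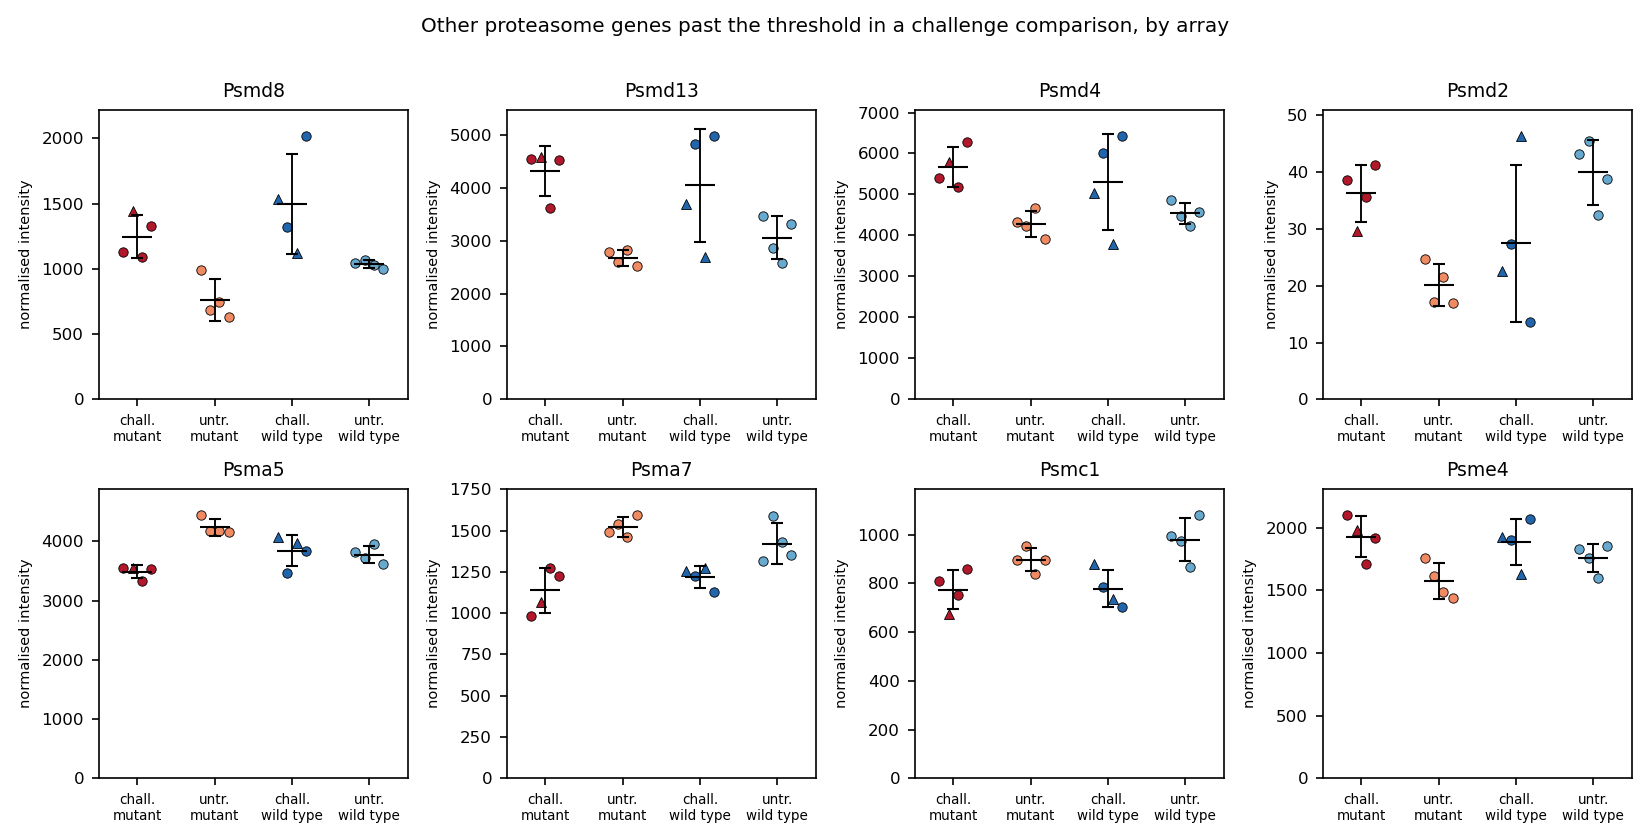
Normalised intensity (linear, from 0) of 8 further proteasome genes past the threshold in a challenge comparison, by group. Points are arrays, bars mean ± SD (n = 4), and triangles the 3 arrays with skeletal muscle RNA. Psmd8, Psmd13 and Psmd4 are higher in challenged than in untreated mutants and Psma5 and Psma7 are lower. The wild-type triangles of Psmd13 and Psmd4 lie below the other challenged wild-type arrays. The mutant triangle is the highest challenged mutant array for Psmd13 and the second highest for Psmd4.

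Of the 6 ATPase genes of the 19S base, none was called in mutants (limma adjusted p of 0.0623 to 0.895), where 23.8% of all features were. There 2 of the 6 had an unadjusted p under 0.05, beside 37.6% of all features. In wild type 1 of the 6 fell, where 9.42% of all features fell. This was Psmc1, by 0.32 on the log2 scale (SE 0.10, adjusted p = 0.0309). Psmc1 had 879, 787, 738 and 705 in challenged wild type, against 996, 975, 867 and 1081 in untreated wild type, with array 1 of the challenged and array 3 of the untreated group changing places. In mutants its change was -0.21 (adjusted p = 0.129). Its call was lost without any 1 of untreated wild type 1, 2 or 4 or of challenged wild type 2, 3 or 4, at -0.33 to -0.27 (adjusted p of 0.0546 to 0.0929). Psmc2, Psmc3, Psmc4, Psmc5 and Psmc6 had changes of -0.20 to 0.15 in mutants and -0.14 to 0.01 in wild type.

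Of the remaining regulators, Psme4, the nuclear activator PA200, averaged 1930 ± 164 in challenged mutants against 1575 ± 145 in untreated mutants (SD, n = 4 each). It rose by 0.29 in mutants (SE 0.10, adjusted p = 0.0416), with overlapping groups, and had a change of 0.10 in wild type (adjusted p = 0.53). Without the arrays with muscle RNA its mutant change was 0.27 and not called (adjusted p = 0.0735). Psme3, the activator of nuclear proteasomes, had a change of 0.24 in mutants (adjusted p = 0.0743) and 0.03 in wild type. Psmf1, the inhibitor PI31, had changes of 0.04 and 0.02. A dimmer Psmf1 probe gave -0.21 in mutants (limma adjusted p = 0.105, every probe tested singly) and -0.33 in wild type (adjusted p = 0.0228). The assembly chaperone Psmd5, on a dim probe, had 44.8, 38.5, 53.5 and 53.0 in challenged mutants, against 59.9, 91.6, 51.6 and 89.3 in untreated mutants. It fell by 0.35 on the log2 scale (SE 0.12, adjusted p = 0.0464), with overlapping groups, and stood at 0.04 in wild type. Without the arrays with muscle RNA its mutant change was -0.30 and not called (adjusted p = 0.11). The 3 probes of the chaperone Psmd10 disagreed in mutants, at 0.10 for the brightest, 0.35 (adjusted p = 0.012) and -0.48 (adjusted p = 0.0021). Psmd9, the third chaperone, had changes of 0.10 in mutants and -0.29 in wild type (adjusted p = 0.124). Psme3ip1 had 694, 744, 587 and 751 in challenged wild type, against 550, 561, 478 and 608 in untreated wild type, and rose by 0.31 (SE 0.10, adjusted p = 0.0397). Its groups overlapped in 1 array on each side. Psmc3ip was not called.

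The calls differed in how far they rested on single arrays. Only arrays of the groups compared were left out, 1 at a time. Of the 13 in mutants, 9 were kept whichever of these was left out (Psmb5, Psmb6, Psmb7, Psmb9, Psmb10, Psma5, Psma7, Psmd8 and Psmd13). Of the 7 in wild type, 3 were kept (Psmb5, Psmb9 and Psmb10). The call of Psmd4 in mutants was lost without any of untreated or challenged arrays 1, 2 and 4 (0.35 to 0.42, adjusted p of 0.057 to 0.0995). That of Psme4 was lost without untreated 2, 3 or 4 or challenged 1, 2 or 4 (0.24 to 0.30, adjusted p up to 0.117). In these runs the Psmd2 call in mutants held only without challenged array 2 (adjusted p = 0.0491) and otherwise had adjusted p up to 0.108. Psmd5 lost its call without every array but untreated 1 and 3 (adjusted p up to 0.142), and Psme3ip1 in wild type without every array but untreated 4 and challenged 3 (0.25 to 0.33, adjusted p up to 0.11).

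Between genotypes no proteasome gene was called. In challenged lungs, mutant minus wild type, 0 of 41 passed limma's threshold, as did 0.0167% of all features, and 3 had an unadjusted p under 0.05 (12.2% of all features). Groups did not overlap in 2 of the 41 (6.56% of all features). The smallest p was that of Psmb5, at -0.50 (SE 0.15, adjusted p = 0.205), where the highest of the challenged mutants, 364, lay below the lowest challenged wild type, 399. Psmd14, the deubiquitinase, followed at -0.19 (adjusted p = 0.393), Psme2 at -0.25 (0.408) and the lid subunit Psmd6 at 0.19 (0.409). The 5 immunoproteasome genes all had estimates below 0, from -0.25 to -0.14. Estimates below 0 were also found for 29 of the 41 in all, and for 11 of the 12 constitutive 20S genes.

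In untreated lungs again 0 of 41 passed (0% of all features), with 6 at an unadjusted p under 0.05 (12.2% of all features) and no overlap in 4 (7.1%). The smallest p were those of Psmd2 at -0.41 (SE 0.12, adjusted p = 0.203), Psmd6 at 0.26 (0.259), Psmd8 at -0.44 (0.267) and Psmb5 at -0.42 (0.271). A dimmer second Psmd6 probe gave 0.04 here and -0.06 in challenged lungs (limma adjusted p = 0.946 and 0.913, every probe tested singly). With weights for array quality Psmd2 passed, at -0.46 (adjusted p = 0.0374). Psmb5 stood lower in mutants at -0.50 and -0.42 in the 2 comparisons, neither past the threshold.

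The challenge responses of mutants and wild type were not called different for any proteasome gene. In the test of the interaction, mutant response minus wild-type response, 0 of 41 passed (0% of all features) and 6 had an unadjusted p under 0.05 (12% of all features). Psmd2 had the smallest p, at 0.60 (95% interval 0.25 to 0.95, adjusted p = 0.198), followed by Psma5 at -0.30 (0.294), Psmb7 at -0.42 (0.324) and Psme2 at -0.41 (0.352). Without the 3 arrays with muscle RNA Psmd2 passed, at 0.79 (adjusted p = 0.0494). Genes called in mutants and not in wild type are therefore not shown to respond differently.

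Beside the proteasome genes, 4 lists of genes with linked roles were read. Of 14 MHC class I presentation genes measured, 4 rose and 1 fell in mutants and 2 rose in wild type, with medians of 0.21 and 0.19. For these 4 lists the shares to set beside the counts are the 23.8% of all features called in mutants, with 12.1% higher and 11.7% lower, and the 17.6% called in wild type, with 8.19% higher and 9.42% lower. Tap2 rose by 1.15 in mutants (SE 0.17, adjusted p = 0.00045) and 0.92 in wild type (adjusted p = 0.00196). Tap1 rose by 0.60 in mutants (adjusted p = 0.0401) and stood at 0.52 in wild type (adjusted p = 0.0859). The class I heavy chain H2-K1 rose by 0.81 in mutants (adjusted p = 0.00931), and the chaperone Calr fell by 0.74 there (adjusted p = 0.0371). Of 16 genes of interferon gamma and its targets, 4 rose and 2 fell in mutants and 3 rose and 1 fell in wild type, again beside 23.8% and 17.6% of all features called. Of the receptor chains, Ifngr1 fell by 0.48 in mutants and 0.51 in wild type (adjusted p = 0.00267 and 0.00238), and Ifngr2 rose by 0.88 in mutants (adjusted p = 0.00441). The transcription regulators Irf1 and Ciita rose in wild type by 0.45 and 0.72 (adjusted p = 0.0491 and 0.00116).

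Of 17 assembly factors, shuttles and regulators outside the Psm symbols, 3 rose and 4 fell in mutants, and 1 rose and 5 fell in wild type, beside 23.8% and 17.6% of all features called. Nfe2l2, a transcription factor that drives stress-induced proteasome genes, fell by 0.82 in mutants (SE 0.11, adjusted p = 0.000263). The ubiquitin shuttle Ubqln1 rose by 0.53 in mutants (adjusted p = 0.000763) and 0.30 in wild type (adjusted p = 0.0234), while the shuttle Rad23b fell by 0.42 and 0.36 (adjusted p = 0.0114 and 0.0287). Zfand2a, a stress-induced partner of the 19S particle, fell by 0.41 and 0.46 (adjusted p = 0.0133 and 0.00893), and the ubiquitin receptor Adrm1 fell by 0.37 in wild type (adjusted p = 0.0227). Of 12 ubiquitin genes and shared enzymes, 1 rose and 3 fell in mutants and 2 fell in wild type, beside the same shares of all features, to which the wild-type count is close. The polyubiquitin gene Ubb fell by 0.41 in mutants (adjusted p = 0.0106), and the conjugating enzyme Ube2n fell by 0.23 in mutants and 0.47 in wild type (adjusted p = 0.0469 and 0.00122). The motif of the antioxidant response element core, TGACNNNGC, bound by Nfe2l2 and its relatives, was found in the start regions of 6 of 36 tested proteasome genes, Psmb5 and Psmb6 among them, against 12.4% of all start regions. This again sets a count by gene beside a share per start region.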

How the data were processed

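The authors deposited 1 value per probe and array, an intensity on a linear scale. From the values, background had been subtracted (23.5 to 23.8% of values were below 0) and arrays quantile normalised; the sources used here do not give these steps. GenomeStudio 2011.1 appears among the tools of the submitters' processing notes. RNA was cleaned and labelled as biotinylated cRNA, per the labels' protocols. The labels give each array its own mouse. A further table with 32 value columns that match no sample label was not used, except that its symbols named 26 probes.

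With R 4.3.3 and limma 3.58.1, normexp with an offset of 16 was fitted to the deposited intensities, which were then put on the log2 scale with no further normalisation. Probes above the background limit of 16.8 (the 95th percentile of the noise) on at least 4 of 16 arrays were kept, 15869 of 25697, and the brightest probe stood for a gene. That gave 11955 features. Levels of different probes were not compared. Each group had 1 coefficient over all 16 arrays, tests were 2-sided, and the Benjamini-Hochberg adjustment ran over all 11955, with calls at an adjusted p under 0.05. The fit was tried on simulated data with independent normal noise for each gene and array. RNA shared across genes of an array, such as muscle RNA, was not simulated. No call rests on that trial. The number of arrays limits the precision.

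Named with values were the 5 immunoproteasome genes, Psmb5, Psmb6 and Psmb7, every proteasome gene past the threshold, the 4 of smallest p where fewer than 4 passed, and up to 4 genes of smallest p of each other list, of which 1 is not reported here. Second probes, and values of other members, were added after they were seen. The members and lists were chosen with earlier results of these data known. Alternatives changed the offset, background model, filter, probe rule, centring, variance trend, array weights, covariates, block and arrays used. Replicate numbers were not taken to pair the samples. Same-numbered arrays had correlations of -0.50 to 0.26 between their deviations from the group means. Untreated mutant arrays 2 and 3 were, among the untreated wild-type arrays, most alike to the one of their own number (0.25 and 0.23). So few correlations cannot exclude a pairing, and the replicate number was used as a block in an alternative.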

Additional observations from a re-analysis of the deposited data

Results flagged for a closer look

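In 20 proteasome genes named with values, the highest and lowest array of each group of 4 was set against the other 3, which made 80 tests, of which chance flags about 5%. The gap to the nearest array was large against the group's range in 6 cases. In challenged mutants, array 3 was low in Psmb10, at an intensity of 1690 where the others had 1990 to 2000, in Psmd13, at 3610 where the others had 4520 to 4580, and in Psma5, at 3330 where the others had 3530 to 3550. Psme2 was low on challenged mutant array 2, at 221 where the others had 258 to 264. Psma5 was high on untreated mutant array 1, at 4450 where the others had 4150 to 4180. Psmb7 was high on untreated wild type array 3, at 1360 where the others had 1090 to 1130. The calls of Psmb10, Psmd13 and Psma5 in mutants were kept whichever mutant array was left out.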

How the results depend on the processing

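No change of direction was found among called proteasome genes in any alternative run, read with 1 value per gene. Where every probe was tested singly, that value was of the probe with the smallest p. The third Psmb7 probe, at 0.11 in mutants (limma adjusted p = 0.439), had the opposite sign to the called change of -0.42. With the leukocyte value as a covariate, 734 features and 1 proteasome gene were called with challenge in mutants, and 241 and 0 in wild type; with leukocyte and muscle values together, an alternative chosen after seeing the data, these were 988 and 1, and 639 and 0. With the leukocyte covariate, Psmb5 (0.57), Psmb7 (-0.42), Psmd13 (0.66) and Psmd4 (0.38) kept about their size in mutants while losing their calls. In wild type, 3 proteasome genes were called with every probe kept, and 4, among 1218 features, with only the arrays compared. Between genotypes in challenged lungs, the features called numbered 5 with an offset of 50, 4 with the mean of a gene's probes or with arrays centred on their medians, 8 with the muscle covariate, 86 without the muscle arrays, 69 with both covariates and 0 with only the arrays compared. They numbered 1 with a floor of 16, every probe kept, probes tested singly, the leukocyte covariate, array weights or the replicate block. In untreated lungs they numbered 1 with an offset of 50, a floor of 16 or the mean of probes, 3 with probes tested singly, 2 with the leukocyte covariate, 7 with both covariates, and 130, with 1 proteasome gene, with array weights. For the interaction they numbered 34, with 1 proteasome gene, without the muscle arrays, 83 with both covariates, and 1 with either covariate alone. Why these counts differed was not tested. With the replicate number as a block, 2773 features and 12 proteasome genes were called with challenge in mutants (Psmd2 and Psmd5 lost, Psmb8 gained at an adjusted p of 0.0405) and 1980 and 5 in wild type (Psmd8 and Psme3ip1 lost). Array weights also brought Psmb8 in mutants past the threshold, at 0.49 (adjusted p = 0.0246). Leaving out 1 array of the groups compared at a time gave 2041 to 2706 features and 9 to 12 proteasome genes in mutants. In wild type it gave 1416 to 2510 and 3 to 9 (9 without challenged array 3, 3 without untreated array 1). It gave 1 to 13 features between challenged genotypes, 0 to 36 between untreated ones and 0 to 3 for the interaction. Proteasome genes numbered 0 in these last 3 comparisons. Centring arrays on their medians changed the share of higher calls in mutants to 45.4%, against 50.9% without it. Dim probes such as those of Psmd2 and Psmd5 lie nearest the background limit.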

Other observations

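Lists of other cells gave the counts of called genes with challenge that follow. In mutants 12.1% of all features were called higher and 11.7% lower, and in wild type 8.19% higher and 9.42% lower. These shares are to be set beside each count. Of 15 cell cycle genes, 2 rose in mutants and 13 in wild type. Of 13 skeletal muscle genes, 0 rose in mutants and 3 in wild type, and of 8 squamous epithelial genes 0 and 3. Of 9 plasma cell genes, none was called in mutants, and 2 rose and 1 fell in wild type. Of 6 alveolar macrophage genes, 1 fell in mutants and 2 fell in wild type. Of 5 fat genes, 0 rose in mutants and 1 in wild type. The 3 arrays with muscle RNA were also the highest challenged arrays in the squamous and fat lists. Of 7 lung epithelial genes, 3 rose in mutants, and 1 rose and 1 fell in wild type. The difference between genotypes was not called for any gene of these lists in challenged lungs. Their part in the changes of proteasome genes was not tested.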
